A study of Mus musculus with 4 samples.

Results

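Antioxidant and glutathione enzymes were examined in gonadal white adipose tissue (gWAT) as 40 genes chosen by symbol, all of which matched exactly 1 row of the deposited expression table of 17335 genes. The samples were gWAT of female fl/fl mice and of their female AD1KO littermates, all fed a high-fat diet (HFD) with 60% of calories from fat, and the series text gives 18 weeks of feeding. Both groups carry the floxed Dnmt1 allele, and AD1KO mice also carry a Cre transgene driven by the adiponectin promoter, so that Dnmt1, the maintenance DNA methyltransferase, is deleted in adipocytes while the other cells of the fat pad keep it. The strain and age of these mice are not given in the sources used here. RNA of 4 animals per group was pooled in equal amounts and each pool gave 1 library, so the values below compare the libraries and carry no measure of the spread between animals. The series also holds bisulfite sequencing samples of mice fed a low-fat or a high-fat diet, which were not analysed here.

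Expression is in FPKM, as inferred from the values because the table does not name their unit. FPKM is a unit that corrects fragment numbers for the length of the transcript and the size of the library, so levels can be compared between genes. Reads behind each value were estimated from FPKM and length, for a depth of 17540000 reads (fl/fl) or 17300000 reads (AD1KO). Each difference is the log2 ratio of AD1KO to fl/fl, computed after 0.01 FPKM was added to both, with a 95% exact counting interval from the estimated reads in parentheses or beside it, which covers counting error only. A gene was counted as higher or lower in AD1KO at a log2 ratio of 0.5 or more in either direction. Of the 15839 genes that reached 0.1 FPKM in 1 library or both, 19.1% were lower and 14.3% were higher by this rule, and their median log2 ratio was -0.04. Dnmt1 was at 6.99 FPKM in the library labelled fl/fl and 3.33 in that labelled AD1KO (log2 ratio -1.07, interval -1.27 to -0.87). Esr1, the estrogen receptor gene that the study followed, was at 4.82 and 8.44 FPKM (log2 ratio 0.81, interval 0.65 to 0.97).

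The markers of the tissue's cell types differed between the libraries. All 10 adipocyte markers, among them Adipoq at 1911 and 3318 FPKM, had a log2 ratio over 0, 9 of them were higher in AD1KO, and their summed level went from 17680 FPKM in fl/fl to 27595 in AD1KO. Of 11 macrophage markers 9 were lower, among them Cd68 at 702 and 326 FPKM, and the sum went from 6429 to 2837 FPKM. All 9 T and NK cell markers were lower and all 8 mesothelial markers were higher, with sums from 116 to 36.4 and from 105 to 196 FPKM. None of the markers in these 4 lists was at 0 in either library. In a bulk tissue, fewer cells of a type and less RNA per cell cannot be told apart. The part of these shifts in the results below was not tested.

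Superoxide dismutases turn superoxide into hydrogen peroxide, which catalase, the glutathione peroxidases and the peroxiredoxins then reduce. Glutathione peroxidases draw electrons from glutathione, and most peroxiredoxins draw them from thioredoxin, both of which are recycled with NADPH. Glutathione S-transferases join glutathione to reactive aldehydes and other electrophiles, including products of lipid peroxidation, which are abundant in obese adipose tissue. Many of these genes are known targets of the transcription factor Nrf2, which binds antioxidant response elements in promoters, and genes of this kind are used by nearly every cell type of adipose tissue.

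Promoter sequence of RefSeq (GRCm38.p6) ran from 250 bases before to 50 bases after an annotated start, and a gene can have more than 1 start. It was at hand for 33 of the 40 genes in 41 windows. Gclc, Gsr, Gsta4, Gstt2, Hmox1, Prdx6 and Sod3 had none. The core of the antioxidant response element was searched as TGACNNNGC on both strands. It occurred in 8 of the 41 windows (19.5%), against 12.4% of 32851 windows of all genes. These 8 matches are shown because they are the stretches of promoter in which the genes share the core that Nrf2 is known to read. They run 5′ to 3′ on the strand that reads the core, with the core in capitals, and were placed on mm9 by exact match of the whole window.
Prdx1: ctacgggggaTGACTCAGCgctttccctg
Srxn1: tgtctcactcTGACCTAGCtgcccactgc
Txnrd1: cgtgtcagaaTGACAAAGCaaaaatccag
Gclm: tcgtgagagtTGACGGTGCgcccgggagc
Sod1: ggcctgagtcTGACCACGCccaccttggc
Gstm5: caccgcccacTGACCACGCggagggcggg
Mgst1: ccccgcctccTGACCGTGCcaagccccgc
Gsta3: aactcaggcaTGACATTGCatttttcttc
The stretches lie at chr4:116358061-116358089 for Prdx1, chr2:151931278-151931306 for Srxn1, chr10:82321849-82321877 for Txnrd1, chr3:121948331-121948359 for Gclm, chr16:90220941-90220969 for Sod1, chr3:107698720-107698748 for Gstm5, chr6:138088982-138089010 for Mgst1 and chr1:21230535-21230563 for Gsta3. Txnrd1 and Mgst1 have 3 and 2 windows, and their matches belong to starts inside the annotated genes, which begin at 82296696 and 138088837. The strand shown is plus for Gstm5 and Gsta3 and minus for the other genes. Genes with a match lay on both sides, from a log2 ratio of -0.64 for Prdx1 to 0.87 for Gsta3. A match is a description of these letters and not evidence of binding, and elements outside the windows were not searched. CpG dinucleotides, the sites at which Dnmt1 acts, numbered 16 in the median window of these genes (range 0 to 48). The median window of all genes held 7 (range 0 to 67), over 27025 genes that were not matched to the enzyme genes by level. Whether any of these sites is methylated was not examined.

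More of the enzyme genes passed the threshold upward than downward. Gsta4, Gsta3, Gstk1, Gstz1, Gsto1 and Sod3 were higher in AD1KO, 6 of 40 genes or 15%, close to the 14.3% of all tested genes. Txn1, Prdx1 and Hmox1 were lower, 3 of 40 genes or 7.5%, against 19.1%. The median log2 ratio of the 40 genes was 0.10, with 26 over 0 (65.0%, against 45.3% of all tested genes) and 14 under 0, as were 53.8% of all tested genes. Their summed level was 8302 FPKM in fl/fl against 9020 in AD1KO. Scaling both libraries by their upper quartile shifted every log2 ratio up by 0.09 and gave 10 higher and 3 lower, adding Cat, Gstm2, Mgst1 and Mgst3. Under this scaling, 2609 of all tested genes were lower and 2795 higher.

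These genes are abundant, so their ratios are more precise than those of most genes. In fl/fl, 22 of the 40 stood at or above the 90th percentile of tested genes by level. The estimated reads over both libraries ran from 129 for Nqo1 to 37745 for Sod3, against 568 for the median tested gene. The whole counting interval lay above 0 for 19 of the 40 genes (47.5%, against 21.5% of all tested genes) and below 0 for 11 (27.5%, against 29.0%). It lay wholly past the threshold for 5 higher and 3 lower genes (12.5% and 7.5%, against 4.14% and 8.26%). All of the 40 but Nqo1 had at least 500 reads, and among the 8363 tested genes with as many reads, 7.11% were higher and 12.7% lower, and the interval lay above 0 for 27.7% and below 0 for 37.4%. Within those 39 enzyme genes the shares were 15.4% higher, 7.69% lower, 48.7% above 0 and 28.2% below 0. These shares describe the libraries and were not tested, as the genes were chosen with results of these data known.

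**Figure D1:**
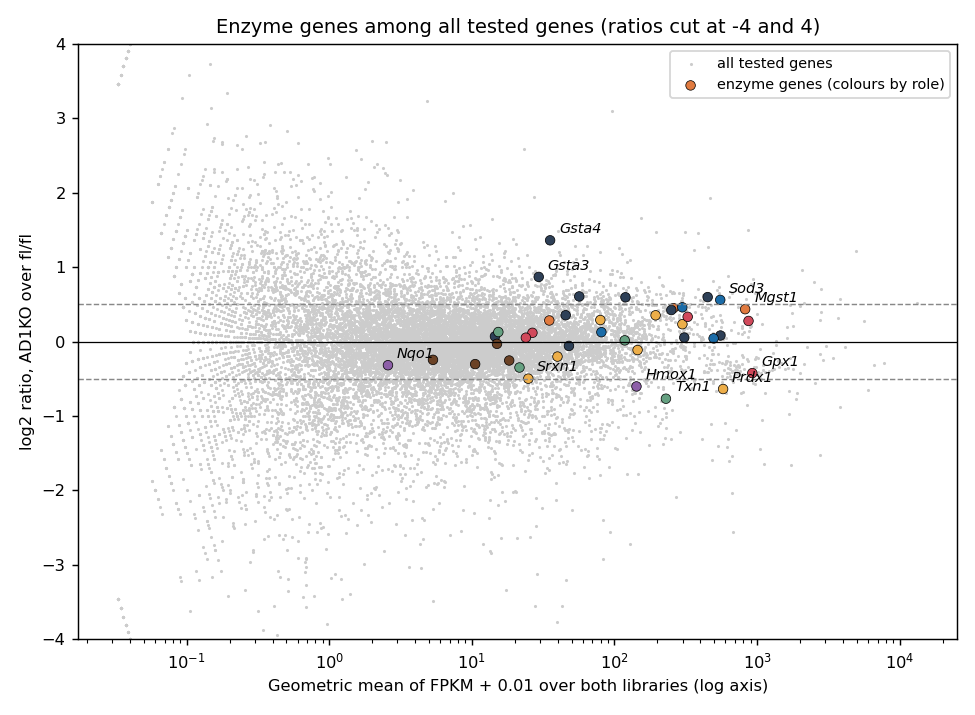
Each grey point is 1 of the 15839 tested genes and each outlined point 1 of the 40 enzyme genes, with the geometric mean of FPKM + 0.01 over both libraries on the x axis (log scale) and the log2 ratio on the y axis, drawn from -4 to 4. Most enzyme genes sit at the abundant end and within 0.5 of 0 (dashed lines), with Gsta4 at 1.36 and Txn1 at -0.77 as their extremes.

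The order of the levels changed at the top. In fl/fl the most abundant of these transcripts was Gpx1 at 1072 FPKM, followed by Gpx4 at 791, Prdx1 at 720 and Mgst1 at 709. In AD1KO, Mgst1 and Gpx4 led, at 959 and 958 FPKM, too close for an order to be read. Gpx1 followed at 799 FPKM, and Prdx1 stood eighth at 463. At the low end, Nqo1, Gclc and Gsr were the least abundant in both libraries, with Nqo1 at 2.87 and 2.30 FPKM. The plot of levels shows that genes within a role often spanned a wide range, so that sums within a role rest on a few genes.

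**Figure D2:**
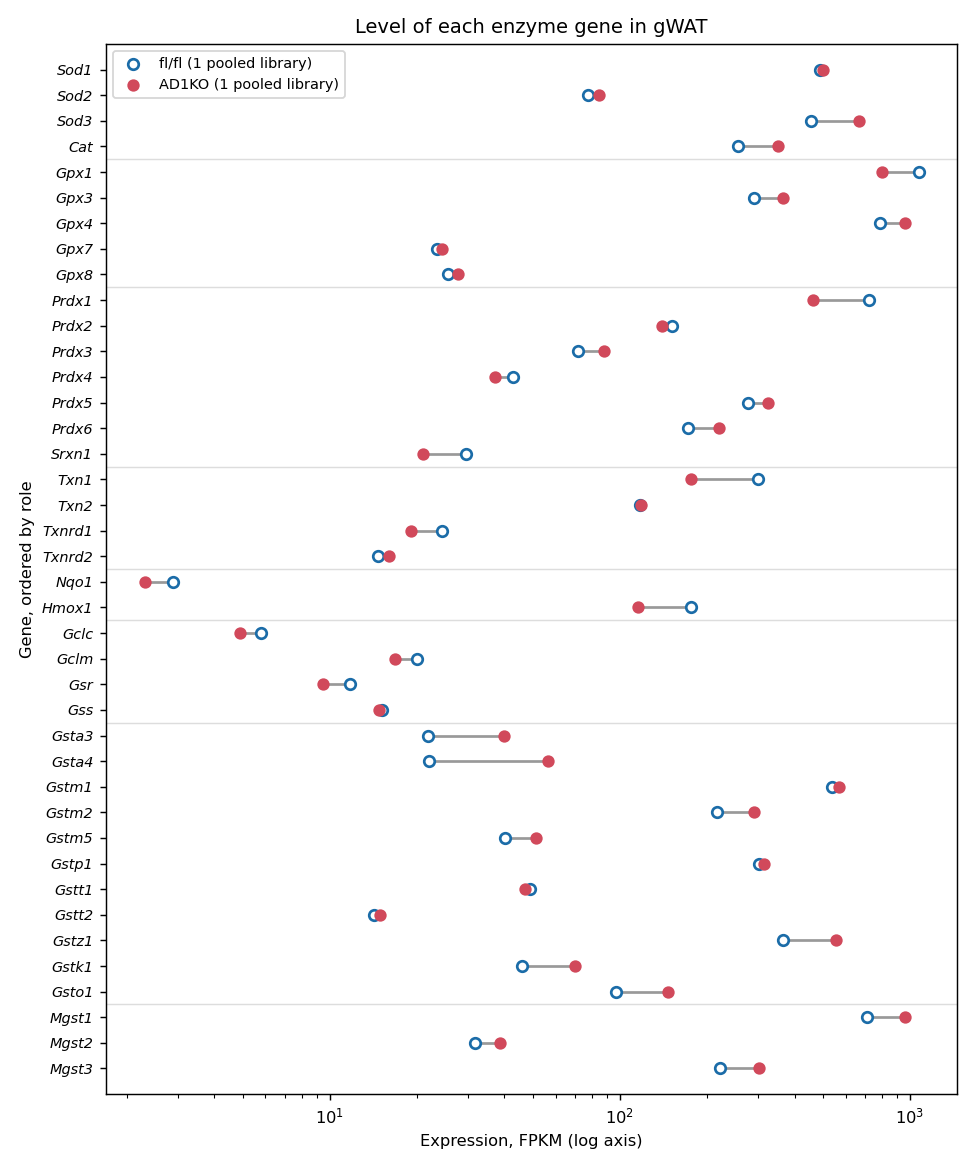
FPKM of each of the 40 enzyme genes (log axis) in the fl/fl library (open circles) and the AD1KO library (filled circles), joined by a line and ordered by role, with 1 pooled library per group and no error bar. The longest lines belong to Gsta4, from 22.1 to 56.6 FPKM, and Gsta3, from 21.8 to 39.8 FPKM.

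The 11 cytosolic-type and 3 microsomal glutathione transferases among the 40 genes held 5 of the 6 that were higher in AD1KO. By the same rule, 14.3% of all tested genes and 7.11% of those with at least 500 reads were higher. Of the 11 cytosolic-type transferases, 10 had a log2 ratio over 0, against 45.3% of all tested genes. The interval lay wholly above 0 for 8 and wholly below 0 for none, against 21.5% and 29.0%. Among tested genes with at least 500 reads, those shares were 27.7% and 37.4%. The summed level of these transferases went from 1713 to 2153 FPKM. Gsta4, which conjugates 4-hydroxynonenal, a reactive aldehyde formed from oxidised fatty acids, lies on chromosome 9 of mm9, 78039773 to 78057155. It was at 22.1 FPKM in fl/fl against 56.6 in AD1KO, an estimated 331 and 839 reads. At 1.36 its log2 ratio (interval 1.18 to 1.55), or a fold of 2.57, was higher than that of 96.6% of all tested genes, and it is the gene among the 40 that also passed a threshold of 1. Gsta3 (chromosome 1, 21230670 to 21255442), another alpha-class transferase, was at 21.8 and 39.8 FPKM and gave a log2 ratio of 0.87 (interval 0.71 to 1.03). The intervals of Gsta4 and Gsta3 do not overlap, so within the alpha class Gsta4 differed more between the libraries.

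Gstk1, Gstz1 and Gsto1 had nearly the same log2 ratio, although their levels differed widely. Gstz1 (chromosome 12, 88488668 to 88505673), which acts in the breakdown of tyrosine, was at 366 FPKM in fl/fl against 554 in AD1KO, with a log2 ratio of 0.60 (interval 0.56 to 0.63). Gsto1 (chromosome 19, 47929460 to 47939280), an omega-class enzyme with glutaredoxin-like activity, was at 97.1 and 147 FPKM, also 0.60 (interval 0.51 to 0.68). Gstk1 (chromosome 6, 42195934 to 42200440), though a kappa-class enzyme of mitochondria and peroxisomes, was counted here with the cytosolic type. It was at 45.9 and 69.8 FPKM, with a log2 ratio of 0.61 (interval 0.46 to 0.75). These 3 intervals overlap, so no order among them can be read.

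The mu-class genes among the 40 were uneven. Gstm1, the most abundant transferase of the cytosolic type, was at 538 FPKM in fl/fl against 569 in AD1KO, with a log2 ratio of 0.08 (interval 0.04 to 0.12). Gstm2 was at 216 and 290 FPKM and had a log2 ratio of 0.42 (interval 0.36 to 0.48), and Gstm5 at 40.2 and 51.4 FPKM, 0.35 (interval 0.19 to 0.52). Gstm1 and Gstm2 are close paralogs, and 46.3% and 57.0% of their 31-base windows occur elsewhere in the mm9 genome, so reads could have been split between them and their single values are uncertain. Summed over these 3 genes, the log2 ratio of reads was 0.18 (interval 0.15 to 0.21). Mu-class genes outside the 40 were left out of this sum, so it does not settle how reads were split. Gstp1, at 303 and 314 FPKM, Gstt1, at 48.9 and 46.9 FPKM, and Gstt2, at 14.2 and 14.9 FPKM, had intervals that include 0, and Gstp1 shares 71.1% of its windows with other places in the genome. Gstt1 had a log2 ratio of -0.06, which turned positive under upper quartile scaling.

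The microsomal transferases, membrane enzymes that also reduce lipid hydroperoxides or act near leukotriene synthesis, all had intervals above 0 and none reached the threshold. Mgst1 was at 709 FPKM in fl/fl against 959 in AD1KO, with a log2 ratio of 0.44 (interval 0.40 to 0.47). Mgst3 was at 222 and 303 FPKM, with 0.45 (interval 0.37 to 0.53), and Mgst2 at 31.6 and 38.5 FPKM, with 0.28 (interval 0.05 to 0.52). Their intervals overlap, and their summed reads had a log2 ratio of 0.43 (interval 0.40 to 0.47). Mgst1 and Mgst3 passed the threshold under upper quartile scaling.

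**Figure D3:**
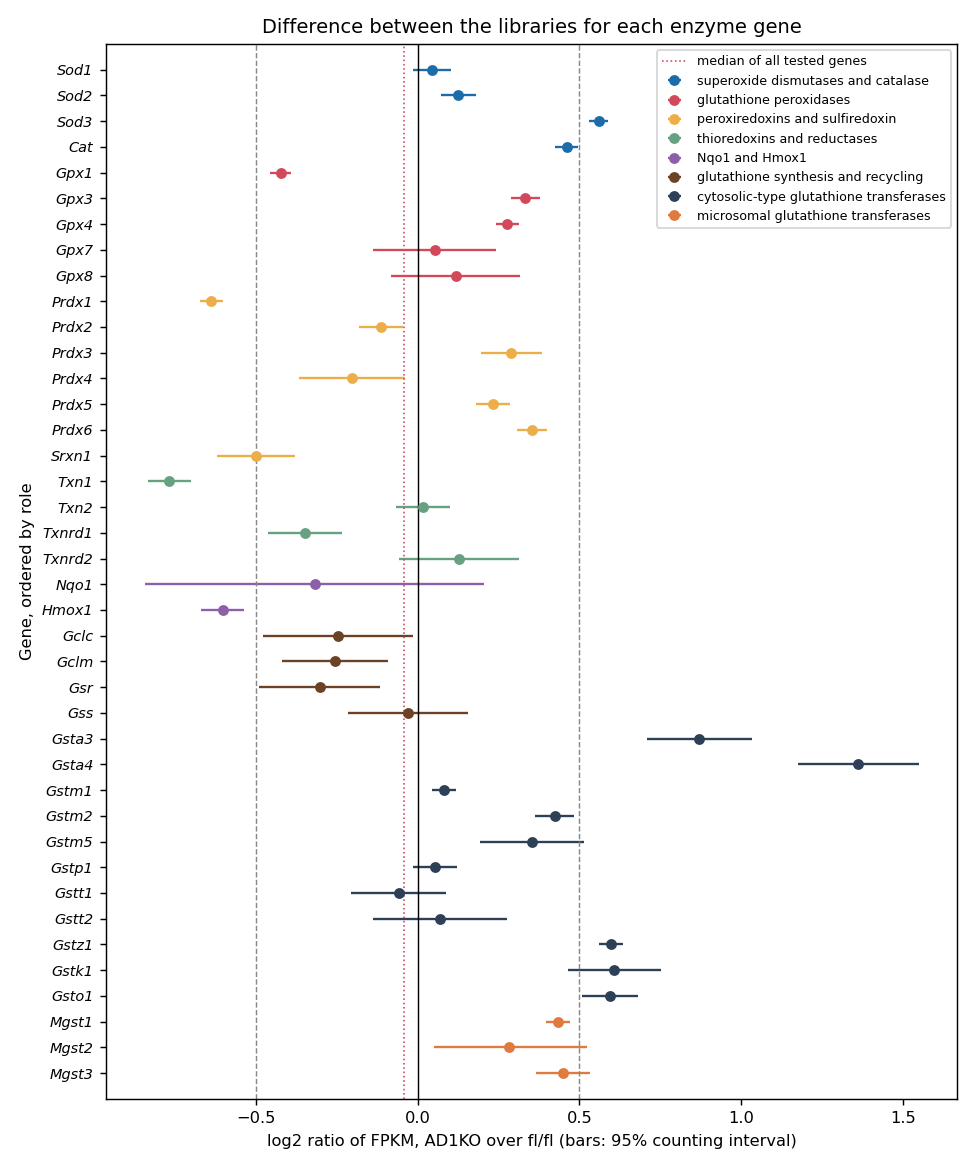
Log2 ratio of FPKM + 0.01, AD1KO over fl/fl, for each of the 40 enzyme genes, ordered and coloured by role, with 95% counting intervals as bars, dashed lines at -0.5 and 0.5, and a dotted line at the median of all tested genes, -0.04. The transferases lie mostly to the right of 0, and the cytosolic thioredoxin system and Hmox1 to the left, with bars that cover counting error and not the spread between animals.

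Among the superoxide dismutases, the extracellular enzyme differed and the other forms did so less. Sod3 (chromosome 5, 52755185 to 52762644), which is secreted and binds the matrix, was at 454 FPKM in fl/fl against 669 in AD1KO, with a log2 ratio of 0.56 (interval 0.53 to 0.59). The cytosolic enzyme Sod1 was at 488 and 503 FPKM, with 0.04 (interval -0.02 to 0.10), and the mitochondrial enzyme Sod2 was at 77.5 and 84.5 FPKM, with 0.13 (interval 0.07 to 0.18). The interval of Sod3 lay above those of Sod1 and Sod2. Sod1 and Sod2 share 39.3% and 28.9% of their windows with other places in the genome. Cat, the peroxisomal catalase, was at 255 and 351 FPKM and had a log2 ratio of 0.46 (interval 0.42 to 0.50) that fell short of the threshold and passed it under trimmed mean of M-values and upper quartile scaling.

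The glutathione peroxidases had ratios on both sides of 0, and their summed level was 2202 FPKM in fl/fl and 2175 in AD1KO. Gpx1, the cytosolic selenoenzyme that is also abundant in blood and immune cells, was at 1072 and 799 FPKM and gave a log2 ratio of -0.42 (interval -0.46 to -0.39). The secreted selenoenzyme Gpx3 was at 291 and 366 FPKM, with 0.33 (interval 0.29 to 0.38). Gpx4, the selenoenzyme that reduces lipid hydroperoxides in membranes and protects from ferroptosis, was at 791 and 958 FPKM, with 0.28 (interval 0.24 to 0.31), but 66.8% of its windows occur elsewhere in the genome. The interval of Gpx1 lay below those of Gpx3 and Gpx4, all within 0.5 of 0. Gpx7 and Gpx8, peroxidases of the endoplasmic reticulum without selenocysteine, were at 23.5 and 25.5 FPKM in fl/fl and at 24.3 and 27.7 in AD1KO, with intervals that include 0. Of 6 erythroid markers 1 was lower and 1 higher, and the list had a median of 0.00.

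Among the peroxiredoxins and thioredoxins, Txn1 and Prdx1 were lower and none was higher. Txn1, the cytosolic thioredoxin (chromosome 4, 57956245 to 57969283), was at 299 FPKM in fl/fl against 176 in AD1KO, an estimated 4921 and 2849 reads. At -0.77 its log2 ratio (interval -0.84 to -0.70) was the lowest of the 40 genes, and was higher than that of 12.7% of all tested genes. Prdx1 (chromosome 4, 116358149 to 116373427), the abundant cytosolic peroxiredoxin that Txn1 recycles, was at 720 and 463 FPKM, with -0.64 (interval -0.67 to -0.60). Srxn1, which repairs overoxidised peroxiredoxins, was at 29.6 and 20.9 FPKM, and its log2 ratio of -0.499 (interval -0.62 to -0.38) was the nearest to the threshold from inside. Txnrd1, the cytosolic thioredoxin reductase, was at 24.3 and 19.1 FPKM, with -0.35 (interval -0.46 to -0.23). All 4 of these cytosolic genes thus had intervals wholly below 0, and Txn1 and Prdx1 wholly below -0.5.

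None of the mitochondrial forms reached the threshold. Txn2 was at 117 FPKM in fl/fl against 119 in AD1KO, with a log2 ratio of 0.02 (interval -0.07 to 0.10). Txnrd2 was at 14.65 and 16.01 FPKM, with 0.13 (interval -0.06 to 0.31), and Prdx3 was at 72.0 and 88.0 FPKM, with 0.29 (interval 0.20 to 0.38). The counting intervals of Txn1 and Txn2, of Txnrd1 and Txnrd2 and of Prdx1 and Prdx3 do not overlap, with the cytosolic form the lower, but these pairs were chosen after their values were seen and the peroxiredoxins as a whole did not follow their compartment. Prdx5, found in mitochondria, peroxisomes and cytosol, was at 276 and 324 FPKM, with 0.23 (interval 0.18 to 0.28), and Prdx6, a mainly cytosolic enzyme that uses glutathione in place of thioredoxin, at 172 and 219 FPKM, with 0.35 (interval 0.31 to 0.40), which overlaps that of mitochondrial Prdx3. Cytosolic Prdx2 (151 and 140 FPKM) and Prdx4 (42.7 and 37.1 FPKM), the latter an enzyme of the endoplasmic reticulum, had log2 ratios of -0.11 and -0.20 with intervals that end at -0.05 and -0.04. Of the windows of Txn1, Prdx1 and Prdx2, 11.8%, 18.9% and 18.5% occur elsewhere in the genome.

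Hmox1 and Nqo1, classical Nrf2 targets, were at very different levels. Hmox1 (chromosome 8, 77617490 to 77624495), heme oxygenase, which macrophages express strongly as they clear heme, was at 176 FPKM in fl/fl against 116 in AD1KO. The log2 ratio for Hmox1 was -0.60 (interval -0.67 to -0.54). Nqo1, a quinone reductase, was at 2.87 and 2.30 FPKM from only about 72 and 57 reads. The interval around its log2 ratio of -0.32 ran from -0.84 to 0.20 and held 0, so at this depth no difference could be detected. Beside these, 10 of the 11 macrophage markers had ratios from -1.45 to -0.48, and the other, Cd163, had 0.30 (interval 0.16 to 0.43). Txn1, Prdx1, Hmox1 and Srxn1 are the enzyme genes that lay within the range of those 10. Srxn1, with the highest ratio of these genes, stood above 19.15% of all tested genes. The share of all tested genes within that range was not counted. By a different rule, which leaves out Srxn1, 7.5% of the enzyme genes lay at or below -0.5, against 19.1% of all tested genes. The overlap with the macrophage markers was not tested.

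Glutathione synthesis and recycling genes were among the least abundant, and none reached the threshold. The subunits of glutamate-cysteine ligase, which makes the rate-limiting step, were at 5.80 and 4.89 FPKM for the catalytic Gclc (log2 ratio -0.25, interval -0.48 to -0.01) and at 19.9 and 16.7 FPKM for the modifier Gclm (log2 ratio -0.25, interval -0.42 to -0.09). Gsr, which reduces oxidised glutathione, was at 11.7 and 9.48 FPKM, with -0.30 (interval -0.49 to -0.12). Gss, which completes glutathione, was at 15.2 and 14.8 FPKM, with an interval from -0.22 to 0.15, and its ratio of -0.03 turned positive under each of the 3 other scalings. Of 13 genes that supply glutathione or break it down, 3 were lower and 4 higher. Slc7a11, the cystine carrier, counted among the lower ones from about 18 and 11 reads, with an interval from -1.92 to 0.47. Ggt1, also counted as lower, had about 7 and 3 reads, and Ggt7, counted as higher, about 9 and 14, both with intervals that include 0. Anpep, which trims peptides at the cell surface, went from 95.7 to 45.9 FPKM, with a log2 ratio of -1.06, and Cth, which makes cysteine, from 5.25 to 10.6 FPKM, with 1.01. Cbs, the enzyme before it, and Chac1, which degrades glutathione, had log2 ratios of 0.69 and 0.65.

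Among the regulators of the pathway, 3 of 8 were lower and none was higher, with a median of -0.32. Of all tested genes, 19.1% were lower and 14.3% higher. Nfe2l2, the gene of Nrf2, was at 51.5 FPKM in fl/fl against 38.6 in AD1KO, with a log2 ratio of -0.41 (interval -0.51 to -0.32), and Keap1, its inhibitor, at 18.8 and 15.99 FPKM, with -0.23 (interval -0.36 to -0.10). Bach1, a repressor at the same elements, had a log2 ratio of -0.59, and Maff and Mafg, partner proteins, had -0.50 and -1.31, Mafg from about 115 and 45 reads. Maff fell short of the threshold under each of the 3 other scalings and Bach1 under upper quartile scaling, which left 2, 1 and 2 of the 8 lower under trimmed mean of M-values, upper quartile and median of ratios. Nfe2l1, a relative of Nrf2, and Sqstm1, which binds Keap1, had intervals wholly above 0, around ratios of 0.37 and 0.12 (log2). Of 11 other Nrf2 target genes 4 were lower, namely Akr1b8 (105 and 54.6 FPKM), Blvrb (180 and 115 FPKM), Blvra (92.7 and 61.0 FPKM) and Cbr3 (11.6 and 7.63 FPKM), and none was higher. The median of these 11 genes was -0.32, and -0.080 for those with at least 500 reads. Blvra and Blvrb are biliverdin reductases, and Blvra acts on the product of Hmox1.

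NADPH, which recycles both glutathione and thioredoxin, depends on a set of supply enzymes. Of 11 such genes 8 had a log2 ratio over 0, Aldh1l1 was higher, at 47.6 and 76.0 FPKM (log2 ratio 0.68), and none was lower. G6pdx, which opens the pentose phosphate pathway, was at 199 and 252 FPKM, with 0.34 (interval 0.30 to 0.38), and Me1, malic enzyme, at 187 and 217 FPKM, with 0.21 (interval 0.18 to 0.25). The 4 methionine sulfoxide reductases all had intervals above 0, with ratios from 0.21 to 0.45 and none past the threshold, which 2 of them passed under upper quartile scaling. Among 10 glutaredoxins and thioredoxin partners, Glrx was lower, at 47.7 and 24.9 FPKM, and Txnrd3 was higher, at 2.93 and 4.15 FPKM, while Txnip, the inhibitor of thioredoxin, was at 298 and 284 FPKM (log2 ratio -0.07). Of 8 selenoprotein supply genes 1 was lower, Scly, at 14.4 and 7.42 FPKM.

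Wide differences also lay outside the enzymes themselves, of a size that Gsta4, at 1.36, reached among the 40. Of 9 tested oxidant-source genes 6 were lower and none higher. They are subunits or partners of the phagocyte NADPH oxidase, with a list median of -1.14, and included Cyba, from 439 to 188 FPKM, Rac2, from 61.0 to 27.7 FPKM, Ncf1, from 39.6 to 17.0 FPKM, and Cybb, from 40.6 to 15.6 FPKM. Macrophage markers had a similar median, -1.11. The metallothioneins Mt1 and Mt2, metal-binding and radical-scavenging proteins, went from 236 to 554 FPKM and from 231 to 639 FPKM, with log2 ratios of 1.23 and 1.47. Ftl1, the light chain of the iron store ferritin, went from 7462 to 4743 FPKM (log2 ratio -0.65). Of 10 other glutathione transferases and peroxidases 2 were lower and 1 higher. Hpgds, a prostaglandin D synthase of the transferase family, went from 27.1 to 11.6 FPKM (log2 ratio -1.23), while Gsta2 had about 5 and 1 reads and Gsta1 0 and 1, too few for a ratio.

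Against the cell type markers, 38 of the 40 enzyme genes lay between the median ratio of the macrophage markers, -1.11, and that of the adipocyte markers, 0.69, a range that also held 82.6% of all tested genes and 93.5% of those with at least 500 reads. Gsta3 and Gsta4 lay above the adipocyte median. Sod3, Gstz1, Gstk1 and Gsto1 lay between the lowest adipocyte marker, 0.46, and that median. With Gsta3 and Gsta4 they are the 6 genes counted as higher, 15% of the 40. By the same rule, 14.3% of all tested genes and 7.11% of those with at least 500 reads were higher. Mesothelial markers, all higher, had ratios from 0.75 to 1.07, and 5 of 6 smooth muscle markers were higher, with ratios of the 6 from 0.44 to 2.59. Endothelial markers had a median of 0.33 with 1 of 8 higher, and stromal progenitor markers a median of -0.06 with 2 of 8 lower. Of 5 B cell markers 3 were lower. Of 6 neutrophil markers 2 were lower and 3 higher, but the interval lay wholly below 0 for 1 of them and wholly above 0 for 1. The other neutrophil directions cannot be read. Of 7 epithelial markers 3 were lower, with intervals wholly below 0, and of 8 brown and beige adipocyte markers 2 were lower and 2 higher.

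**Figure D4:**
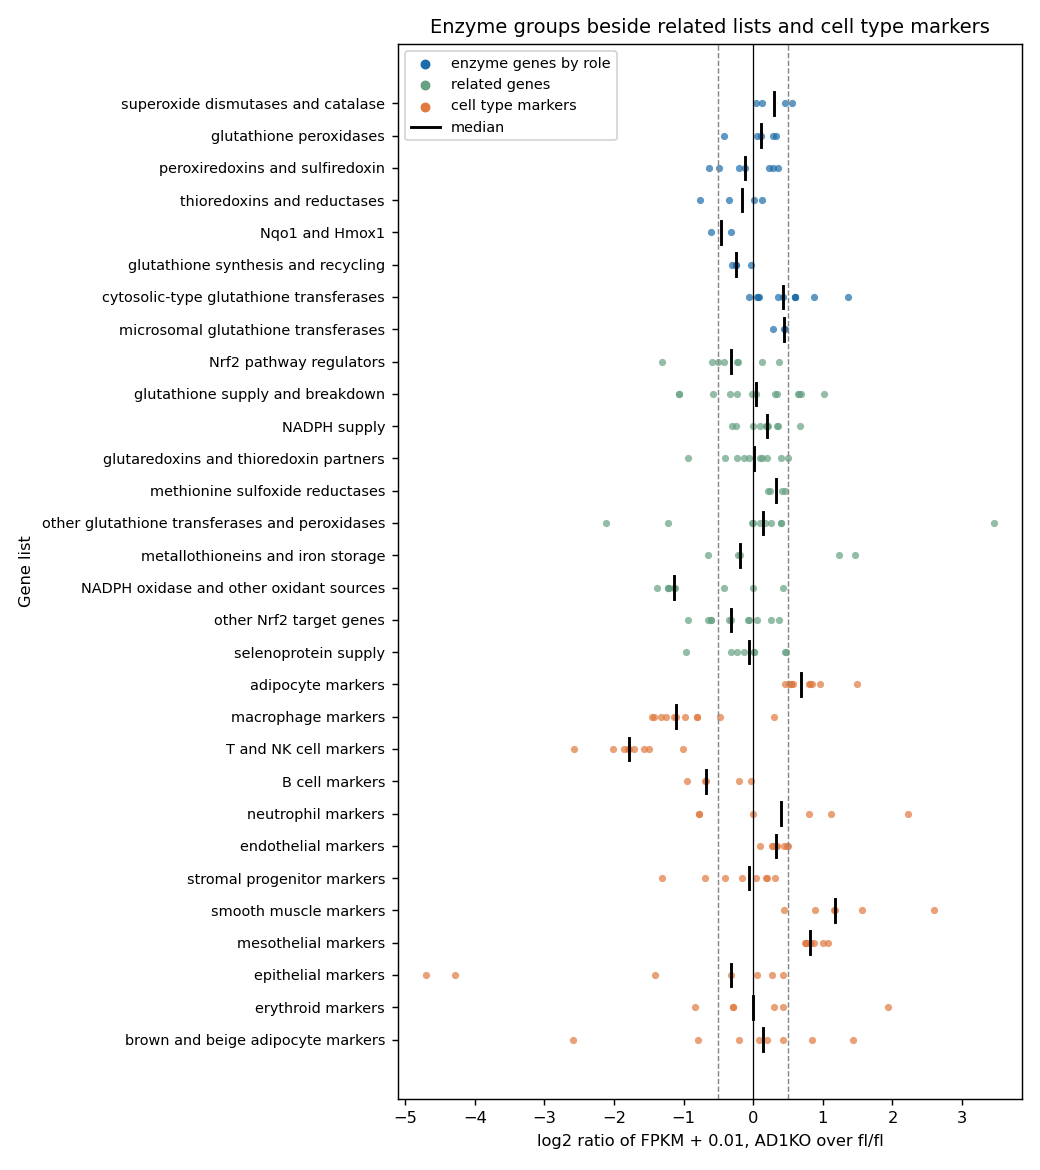
Log2 ratio of FPKM + 0.01, AD1KO over fl/fl, of each tested gene in the 8 enzyme groups, the 10 lists of related genes and the 12 cell type marker lists, with black bars at each list's median and dashed lines at -0.5 and 0.5. The medians of the 8 enzyme groups lie between the macrophage median of -1.11 and the adipocyte median of 0.69, with Gsta4 and Gsta3 above the latter, and the oxidant-source list, at -1.14, lies beside the macrophage markers.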

How the data were processed

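RNA-seq was done on 1 pooled library per group. According to the labels and methods, the authors' service provider selected mRNA, sequenced it and aligned clean reads to mouse mm9, and the program behind the expression values is not given in the sources used here. The deposited table gives expression and a length for each gene, with 0.01 in place of 0, which was set back to 0 here; its unit is not named and was taken as FPKM from the deposited values. Fold changes, p-values and FDR of the deposited comparison were not used. FPKM multiplied by length less 114 bases fell near whole reads (mean distance 0.0895 and 0.0992 over 230 and 235 low values), which gave the depths. Intervals are exact Clopper-Pearson, 95%, and cover counting error only, since each group gave 1 pooled library. Duplicate reads could not be told apart from the deposited values, which can leave the intervals too narrow. Genes under 0.1 FPKM in both libraries were left out. A test of conditions was not possible. The members and lists were chosen with earlier results of these data known. Every member is named; of the related lists, up to 4 genes past 0.5 with the most FPKM, and Nfe2l2, Keap1, Txnip, G6pdx, Me1, Cybb and Slc7a11; Dnmt1 and Esr1; and of the markers Adipoq and Cd68. Nfe2l1, Sqstm1, Ggt1, Ggt7 and the marker Cd163 were added after their values were seen. Alternatives were 3 scalings, other pseudocounts, filters and thresholds, and estimated reads. Positions are from the GENCODE annotation of mm9. Windows of 31 bases were matched to that genome, and exons of 7 genes (Prdx2, Prdx5, Txnrd2, Gclm, Gss, Gstm5 and Gstz1) overlap another gene on the opposite strand; strand use in counting is not given in the sources used here. The steps were tested on simulated data. Tables were handled with pandas 2.3.3 and NumPy 2.4.6 in Python 3.11.15, intervals came from SciPy 1.17.1, and plots from Matplotlib 3.10.9.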

Additional observations from a re-analysis of the deposited data

How the results depend on the processing

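No paired analysis was possible because each group gave 1 pooled library, which also leaves the spread between animals unmeasured. The 9 called genes stayed past 0.5 in each of the 3 scalings, with both added pseudocounts and on estimated reads, and Gss and Gstt1 are the genes whose sign changed. With upper quartile scaling, 10 of the 40 genes were higher and the NADPH supply median was 0.28. The calls of the 10 related lists changed under another scaling for the Nrf2 regulators, the methionine sulfoxide reductases, the selenoprotein supply genes (up to 2 higher) and the oxidant sources (1 higher). A threshold of 1 left 0 of the 40 lower and 1 higher, and 1417 lower and 910 higher of all tested genes. A pseudocount of 1 FPKM gave 1661 lower and 965 higher of all tested genes, as it shrinks ratios of low genes. With a minimum of 1 FPKM, 1281 of all tested genes were higher and the median of the glutathione supply list was 0.18. Without a filter the oxidant-source median was -0.96. A minimum of 500 estimated reads, added after the data were seen, gave 1066 lower and 595 higher of all tested genes, where fewer genes were tested, a metallothionein and iron storage median of 0.50 in place of -0.18, as Mt3 with about 8 and 7 reads left the list, and medians of -0.42 for the other glutathione transferases and peroxidases and -0.080 for the other Nrf2 targets. The summed reads of related genes and the calls of the related lists under each scaling were also added after the data were seen.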
